A study of Mus musculus with 9 samples.

Results

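DAHB given together with oligomycin was set against an NaCl control in activated CD8 T cells of mice, a lymphocyte class whose task is to destroy virus-infected and tumour cells. The comparison took the 3 libraries of the combined treatment (DAHB+O) and the 3 NaCl libraries, 6 of the 9 libraries of the series, from the deposited table of normalized counts. Of the 16344 genes in that table, 14169 had a mean of at least 10 over all 9 libraries and were tested. All cells came from wild-type mice, from spleen and lymph nodes, and all were stimulated with antibodies to CD3 and CD28. Samples of 100000 cells spent the night in 20 mM NaCl, or in DAHB with 10 nM oligomycin, and the third group had 20 mM DAHB without oligomycin. The labels do not spell out DAHB and do not repeat its dose for the combined treatment. DAHB+O therefore differs from NaCl by both agents at once, and also by the added NaCl, which the labels give for the control only. Cells given only oligomycin were not analysed here. The sources used here give neither age nor sex of the mice. No label states whether a group's 3 libraries derive from different mice or cultures. A p-value here therefore reflects only sample-to-sample spread, possibly technical.

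Oligomycin blocks the proton channel of mitochondrial ATP synthase, so that the enzyme stops making ATP and respiration slows. Stress in mitochondria is known to engage the integrated stress response, in which kinases phosphorylate the initiation factor eIF2, bulk translation slows and the messenger of the transcription factor ATF4 is translated more. ATF4 then turns on genes that make, import and load amino acids onto tRNA. Activated CD8 T cells also rely on glycolysis, whose genes are partly driven by HIF-1, on lipid synthesis for growth, and on perforin, granzymes, chemokines and cytokines for their effector work.

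The 6 libraries held 28146402 to 39207045 whole reads each, as recovered from the deposited values, and 1 batch label covered all of them. Pearson's r, taken over 14168 genes that are no independent replicates, ran from 0.995 to 0.996 within NaCl and was 0.995 within DAHB+O and 0.946 to 0.948 between them. Principal component 1 (67.2% of the variance) set NaCl apart, and component 2 (23.4%) split the treated groups. With limma, at an adjusted p under 0.05, 10516 genes (74.2%) differed between DAHB+O and NaCl, of which 5178 (36.5% of all tested) rose and 5338 (37.7%) fell, while 3653 did not pass. The 3 libraries of one group lay wholly above or below those of the other for 78.7% of genes. Rises of 2-fold or more numbered 1980 (14%) and falls of that size 858 (6.06%). That balance depended on the scaling, since quantile normalization gave 1397 and 1292. The median log2 difference over all tested genes was -0.01, and each list below is read against these shares. That median depended on level. It was 0.23 for genes with a mean of 10 to 50 and 0.39 for 50 to 200. For a mean of 1000 to 3000 it was -0.14, and above 3000 it was -0.15. Small negative medians in lists of abundant genes are therefore near those of other genes at such levels. Normalized counts are relative within a library. In these bulk samples, fewer cells of a type and less RNA per cell cannot be told apart.

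**Figure D1:**
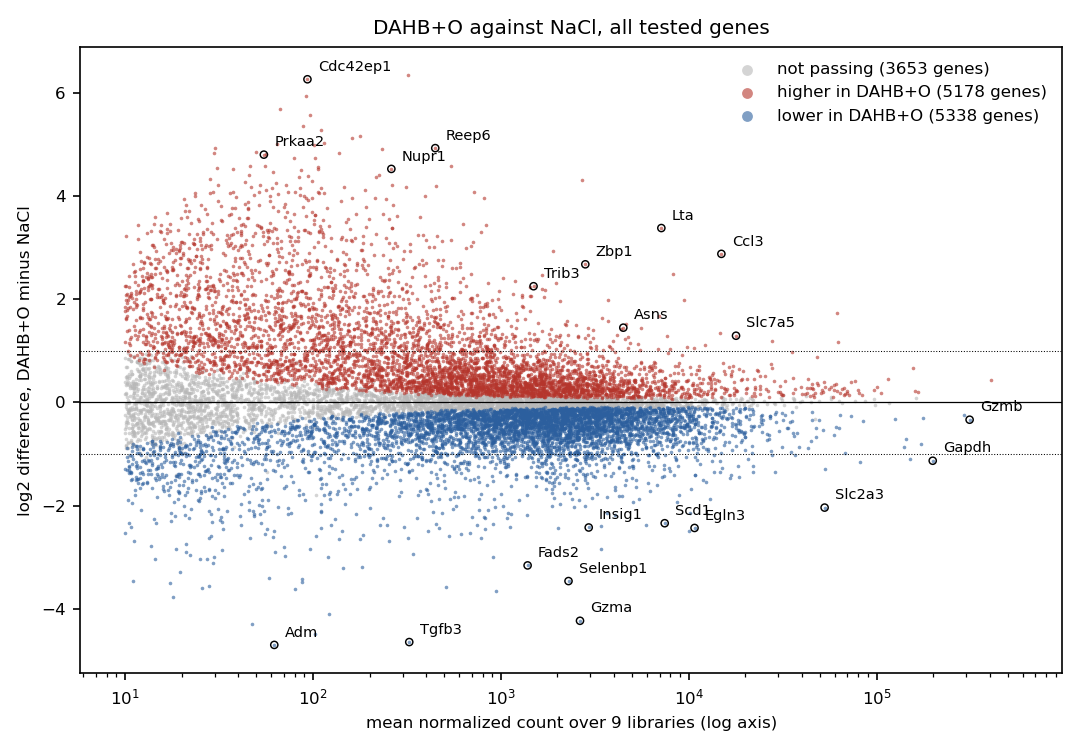
Each point is 1 of 14169 genes, with its mean normalized count over 9 libraries on a log axis and its log2 difference (DAHB+O minus NaCl) on the other, coloured by limma call, and dotted lines mark 2-fold. Rises of at least 2-fold crowd at low levels, while Slc2a3, Gapdh, Insig1 and Scd1 fell at high or moderate levels. The mean includes the treated libraries, so low genes raised by treatment pass the filter more easily.

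Stress genes downstream of ATF4 rose. Of 18 tested genes for ATF4, its partner factors and stress effectors, 12 rose, 5 fell and 1 did not pass, with a median log2 difference of 0.62. Ddit3, which encodes the stress factor CHOP, stood at 448, 379 and 391 normalized counts in NaCl and at 2095, 2004 and 1943 in DAHB+O. Every treated library lay above every control, a rise of 2.31 ± 0.0745 on the log2 scale (SE, limma adjusted p = 1.26e-12). Trib3 (chromosome 2, 152337422 to 152344032, GENCODE vM21 on mm10), a pseudokinase that CHOP and ATF4 induce, read 773, 724 and 741 in NaCl and 3926, 3483 and 3309.9 in DAHB+O. Chac1, an enzyme that degrades glutathione, read 190.3, 150.4 and 145 against 727, 739 and 684. Nupr1 (chromosome 7, 126623249 to 126630861), a small nuclear stress protein, went from 32.1, 37.4 and 22.7 to 803, 709 and 649.8. For none of these 4 genes did the groups overlap. Nupr1 had the largest rise of the list, 23.1-fold (log2 4.53 ± 0.192, SE, limma adjusted p = 1.89e-11). Atf4 itself, whose protein is controlled mainly by translation, rose 1.47-fold from 9378 ± 468 to 13782 ± 802 normalized counts (SD, n = 3). Sesn2, a leucine sensor that restrains mTORC1, rose 2.44-fold, and the partner factor Cebpb 2.77-fold, while Atf5 and Atf3 rose 1.82-fold and 1.37-fold. The falls included Vldlr, a lipoprotein receptor, from 1547 ± 71 to 324 ± 12.1 (SD, n = 3). Vegfa, an angiogenic growth factor, fell 2.12-fold, and Ddit4, an mTORC1 inhibitor, 1.59-fold.

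In DAHB alone the levels of Ddit3, Trib3 and Atf4 lay below those in NaCl, at 157 ± 9.54, 162 ± 27.1 and 4904 ± 552 normalized counts (SD, n = 3). Those of Cebpb (302 ± 75.3), Atf5 (426 ± 21.7) and Nupr1 (32.9 ± 7.44) did not, beside 216 ± 21.2, 391 ± 14.3 and 30.7 ± 7.45 in NaCl (SD, n = 3). Against DAHB, 14 of the 18 genes were higher in DAHB+O and 3 lower, where 33.1% and 29.5% of all tested genes were called (62.6% in either direction, 2.8% higher and 6.11% lower by at least 2-fold). Trib3 differed by 4.47 on the log2 scale in that test (limma adjusted p = 7.73e-14) and Atf4 by 1.49 (limma adjusted p = 9.54e-11). Genes that act upstream of ATF4 were mostly lower. Of 13 kinases, phosphatase subunits and eIF2 or eIF2B subunits, 10 were lower in DAHB+O than in NaCl, 2 were higher and 1 did not pass. Quantile normalization left 6 of them lower. Eif2ak3, which encodes the kinase PERK of the endoplasmic reticulum, fell 2.04-fold from 2756 ± 139 to 1349.7 ± 84.1 (SD, n = 3). Ppp1r15a, the subunit that directs removal of the phosphate from eIF2, fell 1.39-fold. Oma1, an inner membrane protease that relays mitochondrial stress, rose 1.44-fold, and Eif2b3 rose 1.84-fold.

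The DNA ahead of these genes was read for the amino acid response element, the sequence that ATF4 and C/EBP proteins bind, to show what the members that moved carry. The letters searched were TGATGNAA, on both strands, in RefSeq promoter windows (GRCm38.p6) from 250 bases before to 50 after the transcription start. The letters were found in 2.72% of the 9438 tested genes with a window, and in 6 of the 16 ATF4-list genes with one (37.5%). Among cytosolic tRNA synthetases 5 of 12 held them (41.7%), among asparagine, proline and cysteine genes 3 of 12 (25.0%) and among amino acid carriers 3 of 13 (23.1%). None of 12 serine and folate genes held them in this window. A match is only a description of letters. Below are the 250 bases before the start of 3 members that rose and of Vldlr, which fell, each 5′ to 3′ on the gene's own strand with the match in capitals.
Pycr1 (chr11:120643749-120643998, minus strand): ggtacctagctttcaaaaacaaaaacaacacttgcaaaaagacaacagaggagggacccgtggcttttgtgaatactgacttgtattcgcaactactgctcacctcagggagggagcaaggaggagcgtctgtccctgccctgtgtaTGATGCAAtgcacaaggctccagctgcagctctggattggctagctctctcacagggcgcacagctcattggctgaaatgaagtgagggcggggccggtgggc
Asns (chr6:7693210-7693459, minus strand): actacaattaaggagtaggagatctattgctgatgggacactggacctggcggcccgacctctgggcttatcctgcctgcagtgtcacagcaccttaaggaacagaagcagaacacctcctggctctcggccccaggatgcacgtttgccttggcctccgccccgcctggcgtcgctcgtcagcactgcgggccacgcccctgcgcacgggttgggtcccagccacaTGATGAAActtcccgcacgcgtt
Nupr1 (chr7:126625471-126625720, minus strand): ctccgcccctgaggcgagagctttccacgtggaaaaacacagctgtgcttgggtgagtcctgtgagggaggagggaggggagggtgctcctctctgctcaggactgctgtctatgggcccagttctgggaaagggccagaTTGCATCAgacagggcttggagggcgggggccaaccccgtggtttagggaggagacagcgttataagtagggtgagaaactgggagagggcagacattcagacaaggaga
Vldlr (chr19:27216770-27217019, plus strand): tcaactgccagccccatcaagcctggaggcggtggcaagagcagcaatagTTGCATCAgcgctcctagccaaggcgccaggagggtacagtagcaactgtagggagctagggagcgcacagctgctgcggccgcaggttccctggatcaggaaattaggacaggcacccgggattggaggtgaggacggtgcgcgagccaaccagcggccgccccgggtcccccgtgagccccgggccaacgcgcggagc
In Nupr1 and Vldlr the match lies on the other strand, so its reverse complement is shown.

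Enzymes that make nonessential amino acids rose with the stress genes. In the asparagine, proline, glutamate and cysteine list, 10 of 16 tested genes rose, 3 fell (1 under quantile normalization) and 3 did not pass, with a median log2 difference of 0.34. Pycr1, which makes proline in mitochondria and whose promoter is shown above, read 403, 369.7 and 352 normalized counts in NaCl and 2014, 1969 and 2037 in DAHB+O. The groups were far apart, with a rise of 2.42 ± 0.0637 on the log2 scale (SE, limma adjusted p = 1.62e-13). Asns, asparagine synthetase, went from 3479, 3119 and 3141 to 9430.1, 8641 and 8562. Cth and Cbs, the enzymes that turn homocysteine into cysteine, rose 3.91-fold and 4.58-fold. Gpt2, the mitochondrial alanine aminotransferase, rose 4.11-fold, and Aldh18a1, the step before Pycr1, 2.45-fold. For Asns the DAHB group stood lowest, at 1338 ± 55.1, and DAHB+O exceeded it by 2.73 on the log2 scale (limma adjusted p = 2.36e-14). Pycr1 and Cbs had already risen in DAHB, to 704 ± 48.8 and 297 ± 30.6 normalized counts (SD, n = 3), and were higher again in DAHB+O. No member was lower in DAHB+O than in DAHB, and 12 were higher.

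Serine and folate enzymes moved less evenly, with 8 of 14 higher than in NaCl, 2 lower and 4 not passing. Aldh1l2 and Mthfd2, folate enzymes of mitochondria, rose 2.83-fold and 2.07-fold, and Psat1, of serine synthesis, 1.69-fold. Mthfd1l, the mitochondrial enzyme that releases formate, went the other way, from 10893, 11405 and 11493 normalized counts to 4169.5, 4242 and 4170.4. Its fall (log2 -1.42 ± 0.035, SE, limma adjusted p = 9.08e-14) was the only one of at least 2-fold in the list. Phgdh, the first step from glycolysis to serine, stood at 9237 ± 372 and 10205 ± 450.4 (SD, n = 3), and its call (limma adjusted p = 0.0216) was lost without NaCl replicate 2, NaCl replicate 3, DAHB+O replicate 1 or DAHB+O replicate 2. Against DAHB, at 4127 ± 308, Phgdh was higher by 1.31 on the log2 scale (limma adjusted p = 2.93e-11).

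Amino acid carriers and cytosolic tRNA synthetases rose in most cases. Of 18 tested carriers 11 rose, 4 fell and 3 did not pass, and without DAHB+O replicate 2 the falls were 2. Slc7a5, the large neutral amino acid carrier, read 12428 and 11436 normalized counts in the 2 NaCl libraries that have a value (the cell of NaCl replicate 2 is blank) and 30773, 28923 and 28143 in DAHB+O. Its partner chain Slc3a2 rose 2.1-fold, from 7151 ± 258 to 14984 ± 371 (SD, n = 3). Slc1a4, a carrier of alanine, serine and cysteine, rose 3.64-fold and the cationic carrier Slc7a3 2.25-fold. Slc7a7, another partner of Slc3a2, rose 4.71-fold from 38.2 ± 1.75 (SD, n = 3). The arginine carrier Slc7a2 fell from 208, 221 and 226 to 17.9, 18.4 and 22.3, close to the 23.9 ± 9.1 of DAHB alone. The groups did not overlap for any of these 6 carriers. Compared with DAHB, 16 of 18 carriers were higher in DAHB+O and none lower. Of 20 synthetases, the enzymes that load amino acids onto tRNA, 14 rose and 6 fell, with folds under 2 in every case. Aars, for alanine, rose 1.9-fold from 7826 ± 367 to 14884 ± 710.0 (SD, n = 3), Nars 1.63-fold and Yars 1.61-fold, while Hars fell 1.31-fold. Quantile normalization left 2 of the 6 falls. Against DAHB 18 of the 20 were higher. Of 17 mitochondrial synthetases 8 rose and 6 fell.

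**Figure D2:**
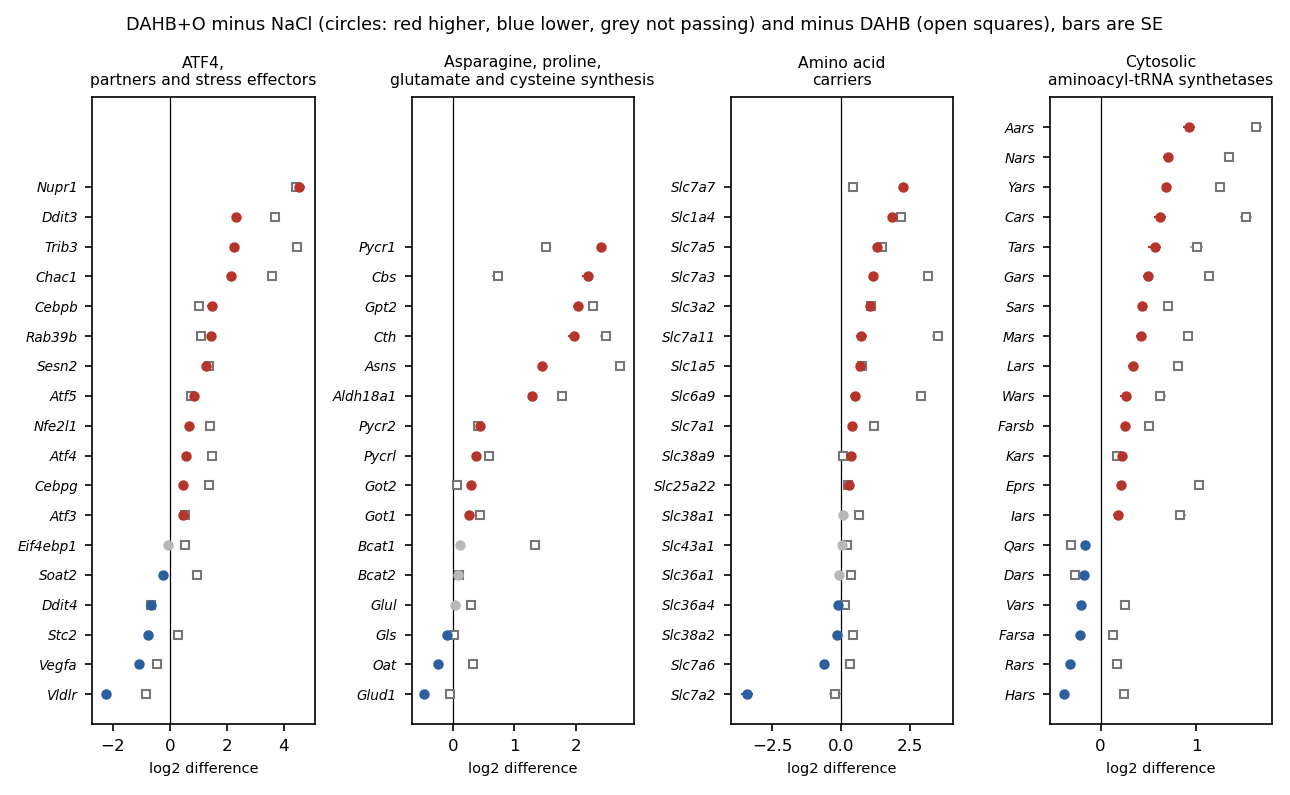
Log2 differences (DAHB+O minus NaCl as circles, DAHB+O minus DAHB as open squares, bars are SE) of the tested members of 4 lists, red for called higher, blue for called lower and grey for not passing against NaCl. Nupr1, Ddit3 and Trib3 lead the ATF4 list at 4.53, 2.31 and 2.26, and Slc7a2 stands alone among the carriers at -3.42.

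Glycolysis and glucose uptake fell as a block. Of 23 tested genes 19 fell, 1 rose and 3 did not pass, with a median log2 difference of -0.71. Slc2a3 (chromosome 6, 122727809 to 122801640), the glucose carrier GLUT3, read 62971, 68226 and 62924 normalized counts in NaCl and 14376, 16029 and 16875 in DAHB+O. All 3 treated libraries lay below all controls, a fall of 4.11-fold (log2 -2.04 ± 0.0884, SE, limma adjusted p = 2.31e-11). Slc2a1, the carrier GLUT1, fell 2.36-fold. Aldoc, an aldolase, went from 6961, 7994 and 7696 to 1186, 1552 and 1645. Pfkl, a subunit of phosphofructokinase, fell 3.45-fold. The enzymes that follow in the pathway fell too, Aldoa by 0.33 on the log2 scale. The folds were 2.46-fold for Tpi1, 2.19-fold for Gapdh, 2.22-fold for Pgk1, 1.53-fold for Pgam1, 1.82-fold for Eno1 and 2.14-fold for Pkm. Ldha, lactate dehydrogenase A, fell 1.64-fold from 162533 ± 2116 to 99252 ± 4515 (SD, n = 3), and Slc16a3, the carrier that exports lactate, 2.33-fold. Hk1 fell 2.34-fold, while the inducible hexokinase Hk2 read 10004 ± 394 in NaCl and 10807 ± 377 in DAHB+O (SD, n = 3, limma adjusted p = 0.0642). Hk2 was called higher under TMM or quantile scaling, with edgeR, with a replicate block, with the 2 groups alone, and without NaCl replicate 2, DAHB replicate 1, DAHB replicate 3 or DAHB+O replicate 1. Eno2, an enolase best known from neurons, was the member that rose, from 136 ± 5.11 to 339.9 ± 3.45 (SD, n = 3). Processed pseudogenes of Gapdh and other glycolysis genes could take or add reads in the authors' counting.

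Several of these genes stood near or above the NaCl level in DAHB alone. Slc2a3 stood at 78246 ± 12068, Pgk1 at 98604 ± 1727 and Ldha at 170646 ± 6738 (SD, n = 3), and 21 of the 23 genes were lower in DAHB+O than in DAHB. Hk2, at 24131 ± 1874 in DAHB, had a log2 difference of -1.16 in that test (limma adjusted p = 9.56e-11). Tpi1 and Pfkl were lower than NaCl in DAHB alone as well, at 53746 ± 2722 and 7273 ± 229.

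Other targets of HIF-1, the oxygen-regulated transcription factor, fell with the glycolysis genes. Of 16 tested genes outside glycolysis, the factor's own gene Hif1a included, 14 fell and 2 rose, with a median log2 difference of -1.34. Egln3, a prolyl hydroxylase that marks HIF-1 for destruction, read 12161, 14478 and 13065 normalized counts in NaCl and 2215, 2427 and 2706 in DAHB+O. It fell 5.41-fold (log2 -2.43 ± 0.0975, SE, limma adjusted p = 1.07e-11). Adm (chromosome 7, 110627661 to 110629820), a secreted vasodilator peptide, fell from 84.8, 112 and 101 to 3.78, 1.15 and 4.46, the largest fall among all genes that met the naming rule. Kdm3a, a histone demethylase, fell 3.27-fold. Bnip3 and Bnip3l, receptors for the removal of mitochondria, fell 2.85-fold and 2.55-fold. Hif1a, the message of the factor's regulated subunit, was higher, at 28097 ± 262 against 19582 ± 615 (SD, n = 3), and did not differ detectably from DAHB at 29106 ± 610.4 (log2 -0.05, limma adjusted p = 0.234). Car9 also rose, 2-fold, a call that quantile normalization lost. In DAHB alone Egln3 stood at 16549 ± 2589 and Adm at 84.2 ± 41.1 (SD, n = 3). The letters ACGTG, the core of the hypoxia response element and also part of the E-box CACGTG, were searched on both strands after the values were seen. They occurred in the promoter windows of 11 of 13 genes of this HIF-1 list (84.6%), in 9 of the 11 that fell and 2 of the 2 that rose. In the glycolysis list 14 of 22 held them (63.6%), with 12 of the 18 that fell and 0 of the 1 that rose. Of all tested genes with a window 29.8% held them.

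Most genes of sterol and fatty acid synthesis fell in DAHB+O. Of 27 tested cholesterol genes 26 fell, 1 did not pass and none rose, with a median log2 difference of -1.14. Insig1 (chromosome 5, 28071363 to 28078662), a sterol-regulated brake on the pathway, read 5679.9, 5557 and 5430.2 normalized counts in NaCl and 965, 1058 and 1080.1 in DAHB+O. It fell 5.37-fold (log2 -2.43 ± 0.0465, SE, limma adjusted p = 1.33e-14). Hmgcs1, which makes HMG-CoA, went from 16564, 17001 and 17605 to 3670.3, 3816 and 4165, with 9583 ± 358 in DAHB (SD, n = 3). The cyclase Lss fell 4.55-fold. Against DAHB, 25 of the 27 were lower and 1 higher, and Lss differed by -1.36 on the log2 scale (limma adjusted p = 1.39e-11).

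The sterol response element was searched in the same promoter windows as TCACNCCAC on both strands. In the fatty acid list below, 1 of 16 genes with a window held it (6.25%), namely Acsl1, which rose (log2 0.54). Of the 11 that fell there, 0 held it. In the cholesterol list it was found in 1 of 19 genes with a window (5.26%), beside 1.38% of tested genes with a window. That gene was Hmgcs1, whose 250 bases before the start are shown 5′ to 3′ with the match in capitals.
Hmgcs1 (chr13:119690101-119690350, plus strand): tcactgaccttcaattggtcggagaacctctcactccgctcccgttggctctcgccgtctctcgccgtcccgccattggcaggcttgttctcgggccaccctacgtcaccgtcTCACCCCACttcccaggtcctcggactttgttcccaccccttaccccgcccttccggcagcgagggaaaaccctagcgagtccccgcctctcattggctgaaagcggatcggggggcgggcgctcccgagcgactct

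Among genes that build and desaturate fatty acids 14 of 19 fell, 3 rose (5 under quantile normalization) and 2 did not pass. Fads2 (chromosome 19, 10062765 to 10101746), the delta-6 desaturase, read 3030.2, 3172 and 3128 in NaCl and 347, 348 and 345 in DAHB+O, an 8.95-fold fall (log2 -3.16 ± 0.0635, SE, limma adjusted p = 1.98e-14). Scd1, which makes monounsaturated fatty acids, went from 12994, 13237 and 13504 to 2408, 2702 and 2731. Fasn, fatty acid synthase, fell 2.64-fold, Elovl6 2.76-fold, and Srebf1, a transcription factor of the pathway, 1.91-fold. Acacb, an acetyl-CoA carboxylase tied to the control of fatty acid oxidation, rose 4.16-fold from 57.4 ± 8.68 to 240.0 ± 11 (SD, n = 3), as it did in DAHB at 201 ± 26.7. Of 9 tested LXR targets and cholesterol efflux genes 6 rose and 3 fell. Abcg1, a cholesterol exporter, rose 1.75-fold, Mylip, a ubiquitin ligase, 2.61-fold, and Apoe fell 2.6-fold.

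**Figure D3:**
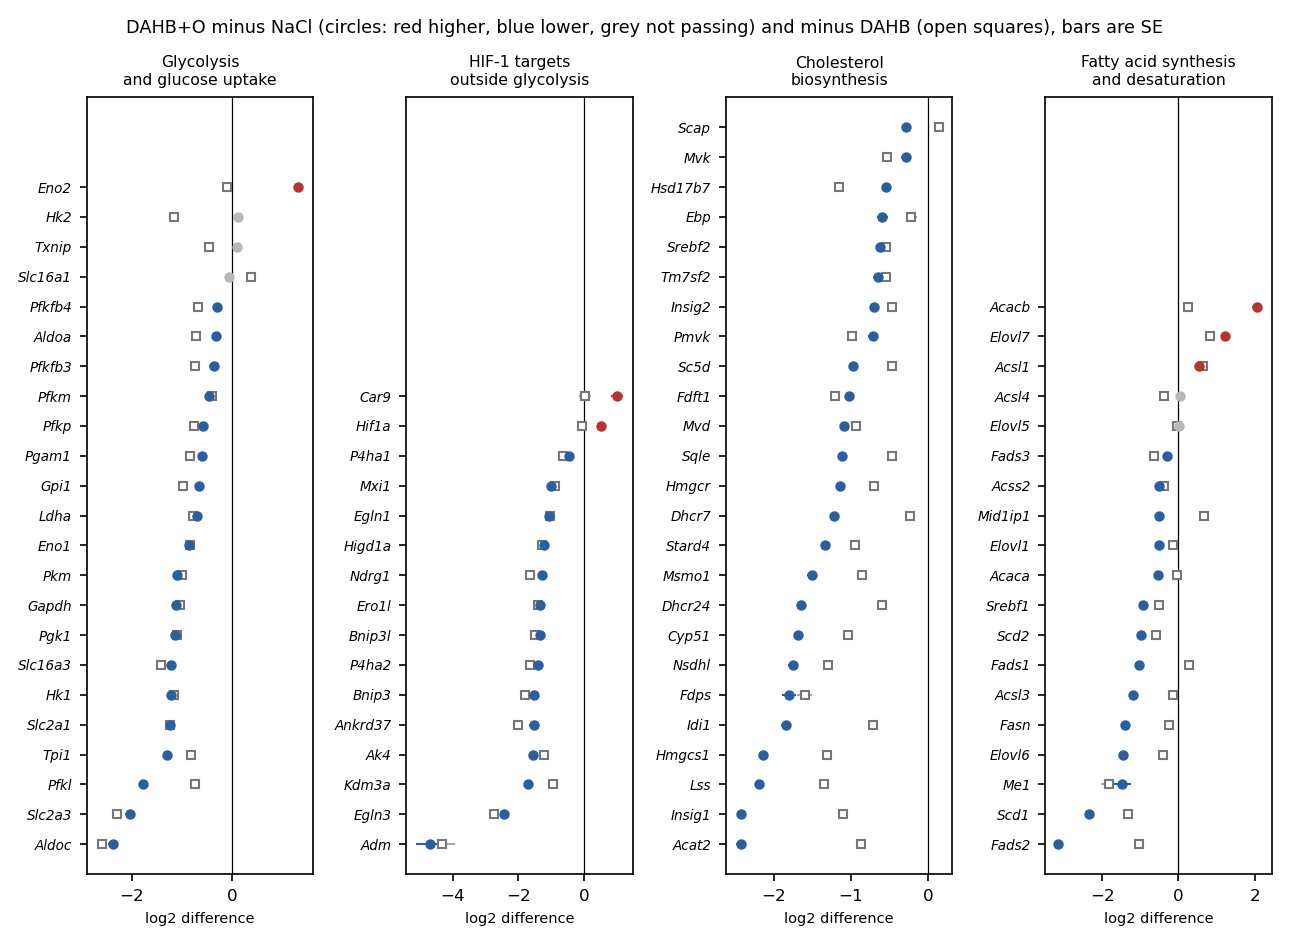
Log2 differences (DAHB+O minus NaCl as circles, DAHB+O minus DAHB as open squares, bars are SE) of tested members of 4 lists, with 2 cholesterol genes not drawn, red for called higher, blue for called lower and grey for not passing against NaCl. Slc2a3 lies at -2.04 against NaCl and -2.30 against DAHB, while Fads2 lies at -3.16 against NaCl and -1.03 against DAHB.

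The listed nuclear genes of ATP synthase, the target of oligomycin, and of the respiratory chain changed by less than 2-fold. Of 17 tested ATP synthase genes, the inhibitor Atpif1 included, 10 fell, 2 rose and 5 did not pass, with a median log2 difference of -0.14. All tested genes with a mean above 3000 had a median of -0.15. Atp5b, the catalytic beta subunit, fell 1.45-fold from 64431 ± 446 to 44426 ± 149 (SD, n = 3), and the alpha subunit Atp5a1 1.28-fold. Both stood at similar levels in DAHB, at 45860.3 ± 1553 and 33253 ± 1444. Atpif1 read 950.0 ± 47.2 and 958 ± 57.2 (SD, n = 3, limma adjusted p = 0.873). Complex I subunits from the nucleus rose in 11 and fell in 16 of 36 cases, among them Ndufs3 (down 1.72-fold) and Ndufb9 (up 1.46-fold), and those of complexes II to IV with cytochrome c rose in 6 and fell in 14 of 25. With quantile normalization the falls numbered 6 for ATP synthase, 9 for complex I and 7 for complexes II to IV, and the rises of the last were 11.

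Messages of the mitochondrial genome moved unevenly. Of 10 tested, 5 rose, 1 fell and 4 did not pass. Among those not passing, mt-Nd3, mt-Co2 and mt-Co3 averaged only 11.3, 16.8 and 8.72 normalized counts in NaCl. In DAHB+O they averaged 8.98, 7.08 and 8.72, and values so near the minimum of 10 say little about a change. mt-Co1, by contrast, averaged 268520 in NaCl, and mt-Nd4l, mt-Atp6 and mt-Atp8 were not tested. Whether the counting lost reads of the low or untested messages was not tested, so their values are not read as low expression. The falls were 2 with edgeR, with DESeq2 and without NaCl replicate 1. mt-Nd5, a complex I subunit, read 38675, 36632 and 37918 normalized counts in NaCl and 78684, 86413 and 91244 in DAHB+O, a rise of 2.26-fold (log2 1.18 ± 0.0732, SE, limma adjusted p = 1.23e-09). mt-Nd4 rose 2.29-fold, mt-Nd2 1.98-fold and mt-Nd6 2.54-fold. mt-Nd6 lies on the strand opposite to its neighbours, and how the counting treated strand is not given in the sources used here. mt-Cytb, of complex III, read 31895 ± 607 and 30088 ± 2279 (SD, n = 3, limma adjusted p = 0.257). In DAHB alone mt-Cytb stood at 49418 ± 5436, and the log2 difference of DAHB+O from it was -0.71 (limma adjusted p = 2.79e-07). Counted reads of the mitochondrial genome made up 1.39% to 1.41% of each NaCl library and 1.96% to 2.18% of each DAHB+O library. Messages with few or no counts hardly enter these shares.

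Mitochondrial chaperones and proteases went both ways, 7 up and 7 down of 17, with 11 up under quantile normalization. Of all tested genes 36.5% rose and 37.7% fell. The chaperones Hspa9 and Hspe1 rose 1.54-fold and 1.64-fold. The proteases Lonp1 and Afg3l2 fell 1.88-fold and 2.03-fold, while the proteases Htra2 and Clpp rose 1.6-fold and 1.5-fold. Pink1, a kinase that marks damaged mitochondria, fell from 1786, 1842 and 1857 to 659, 718 and 692. Of 26 TCA cycle and pyruvate genes 7 rose and 12 fell. Acly, which makes cytosolic acetyl-CoA from citrate, fell 2.56-fold from 22119 ± 351 to 8633 ± 267 (SD, n = 3), Pcx, pyruvate carboxylase, 2.28-fold, and Idh2 rose 1.84-fold. Genes that handle hydroxy acids and ketone bodies split 8 up and 6 down of 14. Ldhd, the mitochondrial D-lactate dehydrogenase, rose 3.68-fold from 47.4 ± 6.14 to 176 ± 11.3 and stood at 186 ± 22.7 in DAHB (SD, n = 3). Ldhb rose 2.55-fold, and the ketone body enzymes Bdh1 and Oxct1 fell 1.5-fold and 1.33-fold.

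Killing molecules were mostly near or below the NaCl level in DAHB+O, and 13 of 15 were lower than in DAHB alone. Of the 15 tested genes for perforin, granzymes and killing ligands 8 fell, 2 rose and 5 did not pass. The rises were those of the granzyme Gzmf, 1.59-fold from a mean of 41 to 65.8, and of Serpinb9, 1.11-fold. Quantile normalization gave 5 rises. Prf1, perforin, read 8388, 10579 and 9956 normalized counts in NaCl and 7208, 7925 and 9298 in DAHB+O. The groups overlapped, and the log2 difference of -0.24 ± 0.0864 (SE, limma adjusted p = 0.0187) was lost with DESeq2, under quantile normalization and without NaCl replicate 2, NaCl replicate 3, DAHB+O replicate 1 or DAHB+O replicate 2. DAHB alone held 79335 ± 4369 (SD, n = 3), with a log2 difference of -3.29 (limma adjusted p = 4.48e-13). Gzmb, granzyme B, read 243723, 249120.0 and 244712 in NaCl and 192534, 196859 and 195606 in DAHB+O. That 1.26-fold fall turned into a rise under quantile normalization. In DAHB Gzmb stood at 497521 ± 10663 (SD, n = 3). Gzma (chromosome 13, 113093825 to 113100981), a tryptase that also triggers target cell death, fell from 3360.1, 7049.9 and 6870.0 to 203, 244 and 486. NaCl replicate 1 and DAHB+O replicate 3 stood apart within their groups, yet the groups did not overlap (log2 -4.24 ± 0.356, SE, limma adjusted p = 3.71e-08). Gzmc fell 1.93-fold, the lysosomal protease Ctsw 1.77-fold and the death ligand Tnfsf10 1.55-fold. Sequence shared within the granzyme cluster makes the split between its members uncertain.

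Chemokines and several cytokines were higher than in NaCl. Of 8 tested chemokines 7 rose and 1 fell, with a median log2 difference of 2.05. Ccl3 (chromosome 11, 83647844 to 83649355), which draws in T cells and myeloid cells, read 1088, 1047 and 1066 in NaCl and 9153, 7219.8 and 7409.8 in DAHB+O, a 7.38-fold rise (log2 2.88 ± 0.0851, SE, limma adjusted p = 5.29e-13). In DAHB it stood at 35784 ± 4540.3 (SD, n = 3), so that DAHB+O lay between the other groups, with a log2 difference of -2.17 from DAHB (limma adjusted p = 2.37e-11). Ccl4 and Ccl5 rose 3.96-fold and 5.64-fold and were also lower than in DAHB. Xcl1, which attracts cross-presenting dendritic cells, rose 2.39-fold to 3621 ± 197, near the 4084 ± 725 of DAHB (SD, n = 3). Ccl22 fell 2.14-fold.

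Of 21 tested cytokines 12 rose, 6 fell and 3 did not pass. Lta, lymphotoxin alpha, read 1265, 1128 and 1003 normalized counts in NaCl and 14278, 11269 and 10151 in DAHB+O. It rose 10.4-fold (log2 3.38 ± 0.142, SE, limma adjusted p = 1.75e-11) and was also above DAHB, by 0.51 (limma adjusted p = 0.00571). Tnf rose 4.63-fold, from 563 ± 56.4 to 2614 ± 329.8, and exceeded DAHB at 1821 ± 249 (SD, n = 3). Ifng, which encodes interferon gamma, rose 2.13-fold to 3114 ± 275, below the 5015 ± 870.1 of DAHB (SD, n = 3). Il2, the T cell growth factor, was nearly silent in NaCl at 5.17, 4.92 and 3.62 and reached 103, 78.4 and 98.2 in DAHB+O. It averaged 123 in DAHB alone, from which DAHB+O did not differ detectably (limma adjusted p = 0.11). Il17a, a cytokine of type 17 cells, rose from 25.9, 30.5 and 28.1 to 347, 406 and 289. Il10, an anti-inflammatory cytokine, fell from 128, 220.2 and 198 to 74.6, 86.4 and 126 (log2 -0.92 ± 0.188, SE, limma adjusted p = 0.000413). Its DAHB level was 3025 ± 353 (SD, n = 3), with a log2 difference of -5.00 (limma adjusted p = 1.74e-11). Ltb, lymphotoxin beta, fell 2.42-fold.

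**Figure D4:**
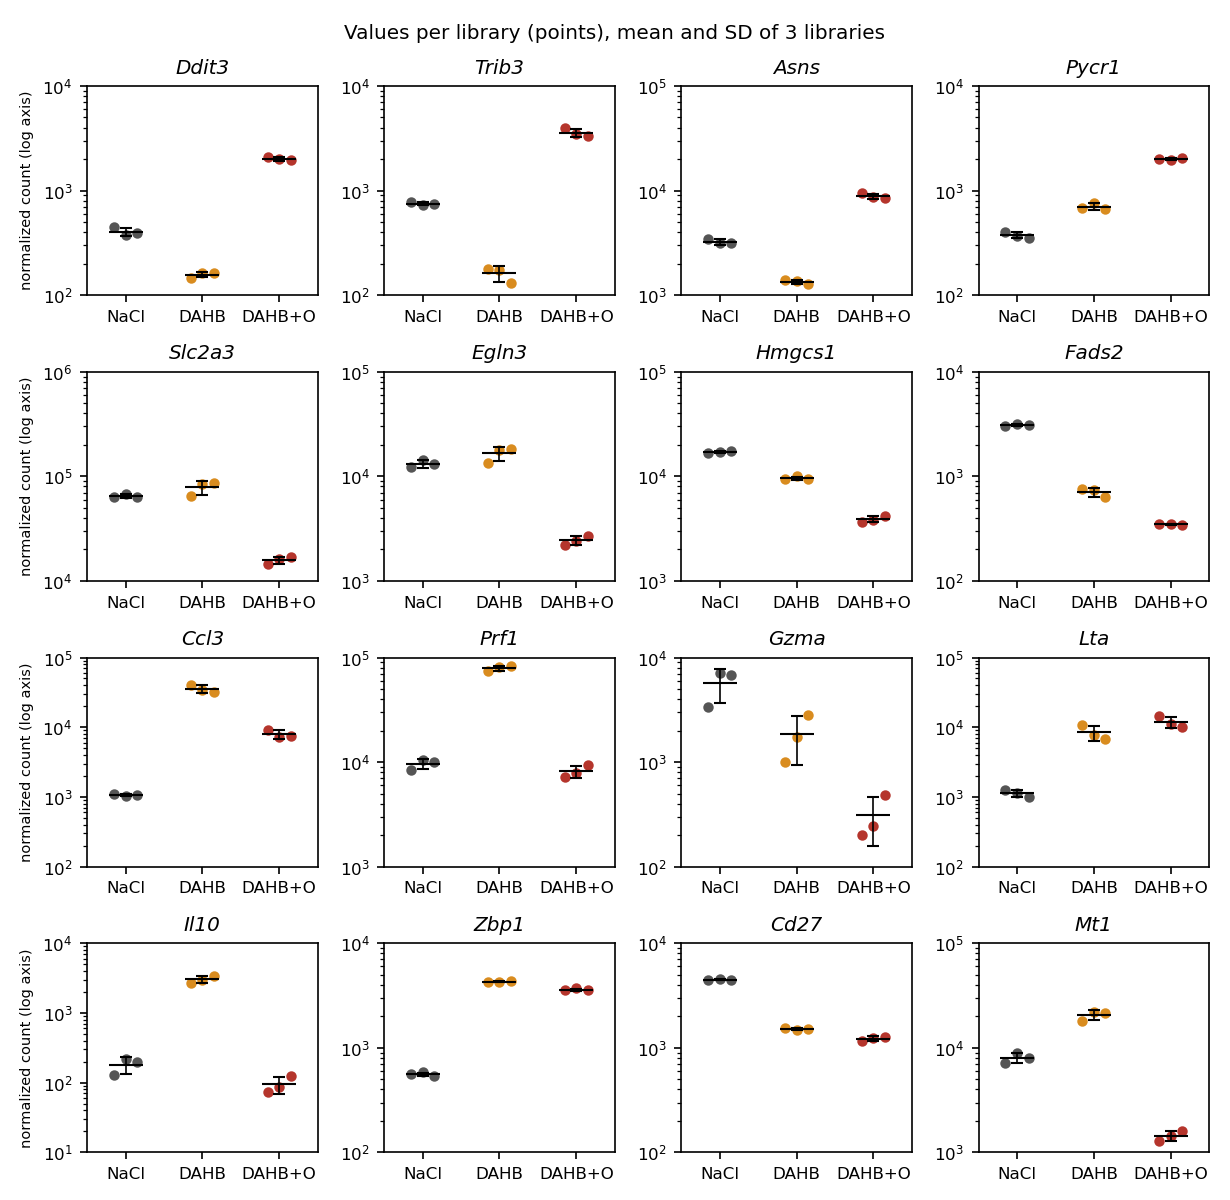
Normalized counts on log axes of 16 genes in the 9 libraries (points), with the mean and SD of each group of 3. DAHB+O lies above both other groups for Ddit3, Trib3, Asns and Pycr1, below both for Slc2a3, Egln3, Hmgcs1, Fads2 and Mt1, and between them for Ccl3 and Zbp1.

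Transcription factors of effector cells moved in both directions, 7 up and 8 down of 20, and 11 were up under quantile normalization. The main counts are near the shares of all tested genes (36.5% and 37.7%) and set the list apart in neither direction. Prdm1, which encodes Blimp-1, a driver of terminal differentiation, read 624, 899.6 and 889.8 in NaCl and 1137, 1467 and 1486 in DAHB+O. It rose 1.71-fold, far less than in DAHB at 6607 ± 542 (SD, n = 3), a difference of -2.28 on the log2 scale (limma adjusted p = 7.22e-10). Tbx21 and Eomes, the lineage factors of cytotoxic cells, rose 1.32-fold and 1.98-fold to levels not detectably different from DAHB (limma adjusted p = 0.644 and 0.423). Batf3, an AP-1 family factor, rose 3.32-fold. Ikzf2, which encodes Helios, fell 2.67-fold, and Zeb2, a factor of terminal effectors, 2.12-fold. Bhlhe40, at 20962 ± 873 and 14557 ± 752 (SD, n = 3), fell 1.44-fold.

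Inhibitory receptors split as well, with 8 of 13 lower, 4 higher and 1 not passing. Havcr2, the receptor TIM-3, read 155, 222 and 209 in NaCl and 791, 796 and 899 in DAHB+O, a 4.26-fold rise. Tox2, a DNA-binding factor of the HMG-box class, rose 11.7-fold from 26.7 ± 4.64 to 322 ± 24.2 (SD, n = 3). Cd160 fell from 1759, 1713 and 1737 to 334, 302 and 306 (log2 -2.46 ± 0.0611, SE, limma adjusted p = 9.67e-14). Pdcd1, which encodes PD-1, fell 2.13-fold, Ctla4 1.79-fold and Lag3 1.52-fold. For each of these 3 receptors DAHB+O was also below DAHB at an adjusted p under 0.05 with limma.

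Genes of naive and memory cells fell in 12 of 21 cases and rose in 6. Cd27, a costimulatory receptor, read 4437, 4545 and 4467 in NaCl and 1155, 1232 and 1279 in DAHB+O, a 3.67-fold fall. Il7r, the receptor for a survival cytokine, fell 1.53-fold and Ccr7, which guides cells to lymph nodes, 1.34-fold. Klf2, a factor that keeps T cells in circulation, rose 3.28-fold from 369.9 ± 22.9 to 1216 ± 102 (SD, n = 3), and its target S1pr1 1.88-fold. Slamf6 and Id3, linked to memory precursors, rose 2.44-fold and 2.06-fold. Tcf7, the factor TCF-1, read 12902 ± 168 and 13350.5 ± 238 (SD, n = 3, limma adjusted p = 0.314), and quantile normalization called it higher.

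Receptor signalling genes were mostly lower. On the IL-2 axis 10 of 16 fell and 5 rose. Jak3, a kinase of the common gamma chain, fell 2.41-fold from 9344 ± 274 to 3874 ± 256 (SD, n = 3), Stat5b 1.72-fold, Il2rb 1.41-fold and Il2ra 1.39-fold. Socs1, a feedback inhibitor, rose 1.63-fold. Among factors of the T cell receptor response 15 of 26 fell and 9 rose. The AP-1 members Junb, Jund and Fosl2 fell 2.66-fold, 2.76-fold and 2.64-fold, and the immediate early factors Egr3 and Nr4a2 3-fold and 2.69-fold. Cd69, an activation marker, rose 1.91-fold, and the phosphatase Dusp5 1.71-fold. Junb read 17159.6, 18063 and 18739.9 in NaCl and 6774, 6548 and 6988 in DAHB+O, with 25936 ± 2700.1 in DAHB (SD, n = 3). Killer lectin-like receptors fell in 8 of 13 cases and rose in 2. Klrd1, a chain of an inhibitory receptor pair, fell 3.08-fold, while Klrk1, the activating receptor NKG2D, rose 1.27-fold. Members of the Klra family are near copies of each other, so their values, such as the 2.8-fold fall of Klra7, are uncertain.

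Interferon-stimulated genes rose. Of 35 tested genes 29 rose, 1 fell and 5 did not pass, with a median log2 difference of 0.62. Zbp1 (chromosome 2, 173206612 to 173218923), which senses left-handed nucleic acids, read 557, 581 and 542 in NaCl and 3554, 3696 and 3538 in DAHB+O, a 6.41-fold rise (log2 2.68 ± 0.0414, SE, limma adjusted p = 3.46e-15). Isg15, a ubiquitin-like protein, rose from 51.7, 54.1 and 48.9 to 493, 517 and 491. Gbp4, a guanylate-binding protein, rose 2.3-fold. Against DAHB each of these 3 genes was lower, with a log2 difference of -0.26, while of the whole list 17 were higher and 15 lower (median 0.17). Dhx58, a regulator of RNA sensing, was the member that fell, 2.42-fold, and is named after its value was seen.

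Genes of MHC class II, which T cells of mice hold little of, did not move together. Cd74, the invariant chain, rose 3.96-fold from 1517 ± 51 to 6018 ± 244 (SD, n = 3). H2-Eb1 and H2-Aa rose 2.49-fold and 1.69-fold, while H2-Ab1 fell 2.38-fold from 4776 ± 210.4 to 2006 ± 61.6 (SD, n = 3). They belong to a list of dendritic cell markers of which 7 of 10 tested rose, 2 fell and 1 did not pass. Summed over the list, NaCl libraries held 8366.7 to 8631.5, DAHB libraries 15762.8 to 17084.1 and DAHB+O libraries 13311.4 to 13970.5 normalized counts. Fscn1, an actin bundler of dendritic cells, rose 2.9-fold. Xcr1, the defining receptor of cross-presenting dendritic cells, fell from 38.3, 61 and 68.9 to 1.89, 4.61 and 5.36, and neither Clec9a nor Siglech was among the tested genes. The part of such cells in the interferon and class II values was not tested.

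Cell division genes were lower than in NaCl. Of 40 tested genes of G2/M and mitosis 37 fell, 1 rose and 2 did not pass, with a median log2 difference of -0.82. Cenpa, the centromeric histone, read 5787, 5808 and 5877 in NaCl and 1667, 1717 and 1749 in DAHB+O, a 3.4-fold fall (log2 -1.77 ± 0.038, SE, limma adjusted p = 4.15e-14). Cdc20, which starts anaphase, fell 3.16-fold, Ccnb2, cyclin B2, 2.49-fold and Ccna2, cyclin A2, 2.23-fold. Mki67, a proliferation marker, read 31493, 24535 and 25788 against 14902, 15825 and 14628. Of 42 DNA replication genes 28 fell and 6 rose, with smaller changes (median -0.27). Quantile normalization gave 10 rises. The helicase subunits Mcm7 and Mcm4 fell 1.77-fold and 1.75-fold, the sliding clamp Pcna 1.68-fold and thymidine kinase Tk1 1.81-fold. In the test against DAHB 41 of the 42 replication genes and 36 of the 40 mitotic genes were higher in DAHB+O, and 0 and 2 were lower. Mcm4, for one, was at 4937 ± 550.4 in DAHB and 7271 ± 67.9 in DAHB+O (SD, n = 3). The E2F letters TTTNGCGC, searched on both strands, stood in the promoter windows of 11 of 35 replication genes (31.4%), beside 2.97% of tested genes with a window.

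Regulators of the entry into the cycle split 8 up and 8 down of 18. Cdkn1b, the inhibitor p27, fell 2.84-fold from 4418 ± 132 to 1553 ± 42.3 (SD, n = 3). Ccnd2, cyclin D2, rose 1.69-fold, and Cdk4 fell 1.55-fold. Cdkn1a, the inhibitor p21, read 8146 ± 466 and 7728 ± 284 (SD, n = 3, limma adjusted p = 0.291). In the MYC network and ribosome biogenesis 18 of 34 rose and 6 fell. Myc rose 1.3-fold, and Ddx21, a helicase of ribosomal RNA processing, 1.64-fold. The antagonists Mxd4, Mxd1 and Mnt fell 4.01-fold, 2.16-fold and 1.71-fold. Mxd1 had stood at 4448 ± 514 in DAHB against 2187 ± 148 in NaCl and 1013 ± 84.6 in DAHB+O (SD, n = 3). Purine and pyrimidine genes split 8 up and 8 down of 23 (13 and 5 under quantile normalization). The main counts are near the shares of all tested genes (36.5% and 37.7%). Gart, of purine synthesis, rose 1.69-fold and Gmps, of GMP synthesis, fell 1.69-fold.

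Chromatin enzymes, which the series concerns through chromatin accessibility, were mostly lower by small factors. Of 45 ATP-dependent remodelers 31 fell, 5 rose and 9 did not pass, with a median log2 difference of -0.32. Quantile normalization gave 11 rises. Baz1a, a subunit of ISWI complexes, fell 2.1-fold from 5613 ± 109 to 2675 ± 102 (SD, n = 3), Arid2, of a SWI/SNF complex, 1.95-fold, and Mbd3, of the NuRD complex, 1.83-fold. In the test against DAHB 24 remodelers were higher and 5 lower. Of 37 histone and DNA methylation enzymes 26 fell and 4 rose. The methyltransferase family member Kmt2e fell 1.98-fold and the demethylases Kdm6a and Kdm5c 1.81-fold and 1.8-fold. Of 30 acetylation enzymes and readers 18 fell and 10 rose. The deacetylase Hdac7 fell 2.17-fold and the acetyltransferase Kat6b 2.29-fold, while Hdac1 and Sirt2 rose 1.61-fold and 1.63-fold.

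Metal-binding and protein stress genes held a few large changes. Of 7 tested metallothionein and zinc carrier genes 4 fell, 2 rose and 1 did not pass, and 1 rose under quantile normalization and without NaCl replicate 3 or DAHB+O replicate 1. Mt1, which binds zinc and copper, read 7178, 8947 and 8072 in NaCl, 1296, 1429 and 1591 in DAHB+O, and 20601 ± 2182 in DAHB (SD, n = 3). DAHB+O was lowest, with a log2 difference of -2.49 ± 0.0871 from NaCl (SE, limma adjusted p = 2.9e-12) and of -3.84 from DAHB (limma adjusted p = 8.3e-14). Mt2 fell 3.32-fold and the zinc importer Slc39a10 3.73-fold. Mt3 rose from 37.2, 40.3 and 42.6 to 378, 377 and 463, below its DAHB level of 1919 ± 269. Cytosolic heat shock proteins fell in 8 of 14 cases and rose in 3. Among the rises was Hspb1, a small heat shock protein, from 2.86 ± 1.45 to 143 ± 9.71, with 186 ± 2.21 in DAHB (SD, n = 3). Endoplasmic reticulum chaperones rose in 9 and fell in 12 of 22. Hsp90b1 fell 2.03-fold, and Herpud1 and Sel1l, which serve protein disposal, rose 1.73-fold and 1.61-fold. In the NRF2 and thiol list 12 of 22 rose and 9 fell. Srxn1, which repairs peroxiredoxins, rose 3.41-fold, while the pentose phosphate enzymes Pgd and Tkt fell 2.35-fold and 2.14-fold.

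The largest rises lay mostly in genes with little signal in NaCl. Genes with 0 reads in any library are not in the deposited table and could not be compared. Cdc42ep1, an effector of the small GTPase CDC42, read 1.03, 2.95 and 0.906 in NaCl and 197, 188 and 187 in DAHB+O, with 88 ± 6.68 in DAHB (SD, n = 3). The groups lay far apart, at 77.2-fold. Itga9, an integrin, and Tcea3 rose 61.6-fold and 51.9-fold, and in DAHB alone they stood 35.7-fold and 28.7-fold above NaCl. Reep6, a membrane-shaping protein, went from 33.1, 35.4 and 39 to 1237, 1098 and 1043, well above DAHB at 181 ± 26 (log2 2.63, limma adjusted p = 7.3e-11). After Adm, the largest falls among the named genes were those of Tgfb3, a TGF-beta ligand, from 736, 817 and 742 to 27.4, 27.7 and 33.9, and of Gucy2e, a membrane guanylate cyclase, by 22.4-fold. Selenbp1, a selenium-binding protein, fell from 2871, 3365 and 3266 to 259.5, 293 and 305, with 3424 ± 587 in DAHB (SD, n = 3). The integrin Itga7 and Cables1 fell 12.6-fold and 11.9-fold. In DAHB alone the means were 182 for Tgfb3, 35 for Gucy2e, 993 for Itga7 and 188 for Cables1. Their NaCl means were 765, 262, 1695 and 1249, so part of each fall was already present in DAHB alone. Rises of at least 2-fold reached 28.9% of 2522 genes with a mean of 10 to 50 and 32.3% of 2004 genes with a mean of 50 to 200, but 1.63% of 2456 genes above 3000. Falls of that size ranged from 4.66% to 10.8% over these bins. The filter and the bins use the mean over all 9 libraries, most of them treated with DAHB. A low gene raised in both treated groups therefore passes more easily than one that fell in both. How much of the excess of rises at low levels comes from this was not tested.

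**Figure D5:**
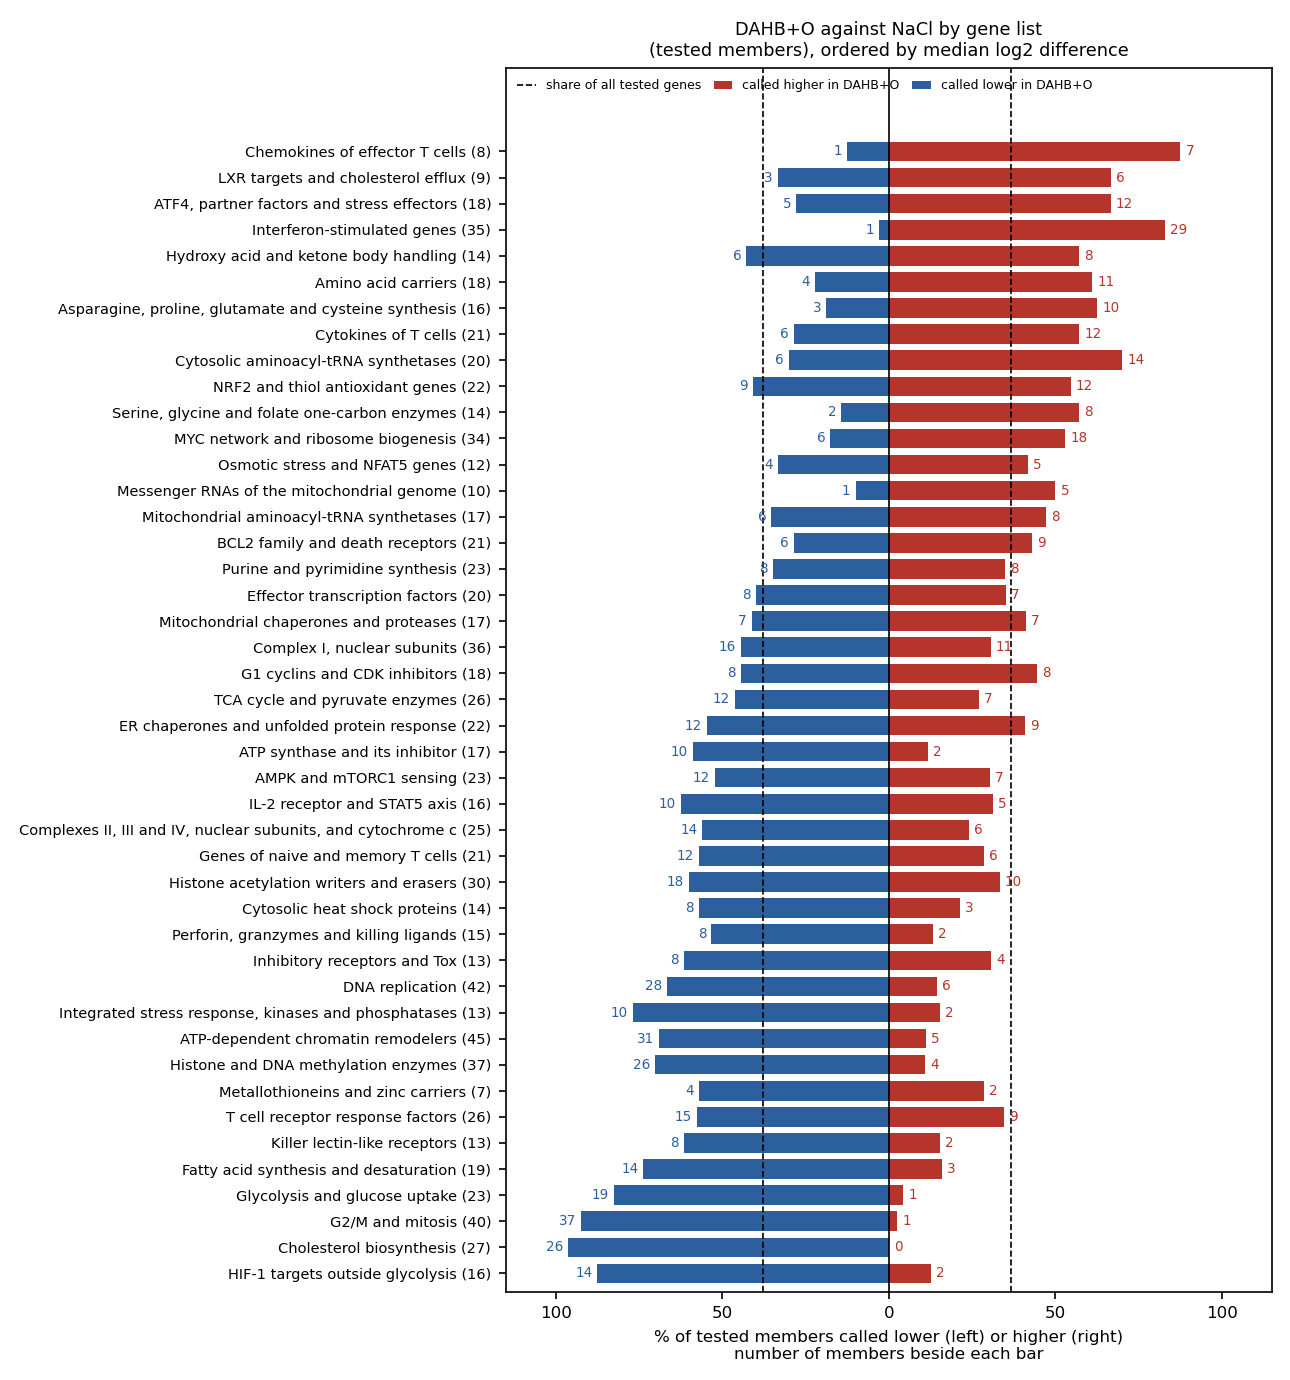
For each of 44 gene lists, ordered by the median log2 difference, bars give the percent of tested members called higher (right, red) or lower (left, blue) in DAHB+O than in NaCl, with member counts, and dashed lines mark the shares of all tested genes (36.5% and 37.7%). Chemokines, LXR targets, the ATF4 list and interferon genes head the plot, and HIF-1 targets, cholesterol synthesis, mitosis and glycolysis close it.

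The libraries carried the markers of T cells throughout, Cd8a and Cd8b1 of CD8 T cells included. The other members of that list are shared with CD4 T cells and do not tell the 2 apart. Of the 16 listed markers 14 were lower in DAHB+O, 2 did not pass and none rose, with a median log2 difference of -0.27. Their summed level was 196549 to 209481 in NaCl and 161292 to 168271 in DAHB+O. Quantile normalization gave 8 lower and 2 higher. Cd8a read 16906 ± 320.3 and 16415 ± 220.2 (SD, n = 3, limma adjusted p = 0.301), and quantile normalization called it higher. Of 9 B cell markers 6 fell, with summed levels of 7687.3 to 8254.6 and 2069.1 to 2253.7, most of it Ighm, which fell 4.43-fold, and Pax5 was not tested. Natural killer markers gave 3 up and 3 down of 7 (12784.9 to 13760.7 against 13552.4 to 13948.4). Monocyte and macrophage markers gave 3 up and 4 down of 9, or 2 down without NaCl replicate 3 (2204.9 to 2396.8 against 2083.8 to 2286.0). Of 4 tested CD4 and regulatory T cell markers 3 rose and 1 fell (2199.1 to 2301.1 against 3514.3 to 3749.6), led by Zbtb7b, the CD4 lineage factor, at 2.48-fold, and Foxp3 was not tested. All 3 tested stromal and endothelial markers rose (1213.1 to 1324.3 against 1789.7 to 1962.5). Neither of 2 neutrophil markers passed, and no erythroid marker was tested. An untested marker does not show that a cell type was absent, since the table leaves out genes with 0 reads in any library. The part of other cell types in the results was not tested.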

How the data were processed

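RNA of activated CD8 T cells was enriched for poly(A) and sequenced, per the labels' protocols. The submitters' processing notes name Trim Galore 0.4.5, STAR 2.4, Picard, HTSeq 0.9.1, DESeq2 and the build mm10. No source used here gives the annotation, the strand setting of the counting or a gene filter. Deposited values are normalized counts (a signal), which the authors made from gene counts. Every value was a whole multiple of what 1 read is worth in its library within 1e-06 reads, and these steps differed from DESeq2 size factors of the recovered reads by at most 0.00769%. The table holds no value of 0, so a gene without reads in even 1 library is not in it. It has 1 blank cell (Slc7a5, NaCl replicate 2, treated as missing) and 21 rows whose name is a bare number, which were tested but not named.

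Genes with a mean of at least 10 were fitted as log2(value + 1) in limma 3.58.1 (R 4.3.3) with a variance trend, 1 mean for each of 3 groups and a spread shared over 9 libraries. Tests were two-sided, adjusted by Benjamini-Hochberg over all 14169 genes and called at 0.05. Folds refer to log2(value + 1), so that for low genes they are smaller than the true ratio. The limma step was tested on simulated data. Alternatives were a replicate block, the 2 groups alone, pseudocounts 0.5 and 10, no filter or a minimum of 50, TMM and quantile scaling, each library left out, and edgeR 4.0.16 (5373 higher, 5188 lower) and DESeq2 1.42.0 (5058 higher, 5135 lower) on the recovered reads. Depth and its range stand in the report.

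Named genes were the 15 largest rises and falls among called genes without overlap and with a mean of at least 50 in the higher group, a panel of T cell and stress genes, and list members: the 4 with the smallest p, or any member of lists of up to 26. A few genes that meet this rule are not reported here. Gene lists, members and the panel were chosen with earlier results of these data known. Lists are described by counts and medians, without a list test. Coordinates are GENCODE vM21 on GRCm38 (mm10), matched by symbol, and promoters are RefSeq windows on GRCm38.p6.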

Additional observations from a re-analysis of the deposited data

How the results depend on the processing

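The 5178 higher and 5338 lower genes stayed within 1.5 times of these counts under the 19 alternatives run. A minimum mean of 50, which tests fewer genes, gave 1251 rises of at least 2-fold, and quantile normalization gave 1292 falls of that size, whose cause was not tested. Leaving out each library in turn gave 4948 to 5261 higher and 5063 to 5441 lower genes against NaCl, 1974 to 1984 rises and 854 to 883 falls of at least 2-fold, and 4287 to 4714 higher and 3836 to 4210 lower genes against DAHB. The named genes Gzmb and Cd8a changed sign under quantile normalization, to 0.19 and 0.15 (log2). The replicate block gave 5274 higher and 5444 lower genes against NaCl (1981 and 860 at least 2-fold) and 4826 higher and 4319 lower against DAHB. Deviations of same-numbered NaCl and DAHB+O libraries correlated at 0.0735, 0.0273 and 0.0419, so the numbers are not treated as pairs, although each of these libraries correlated best with its own number, a hint from the data only. Of the alternatives, quantile normalization moved the most list counts. Among those not given beside their list, it left 2 interferon genes lower, 2 G2/M genes higher and 5 ATP synthase genes higher, and a minimum mean of 50 left 2 B cell markers lower and 5 G1 genes higher. Depth limits genes near the minimum of 10, where single reads weigh most, and no value separates fewer cells from less RNA.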

Other observations

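Energy-sensing genes, apoptosis regulators and osmotic genes were not described above. Their counts stand beside the 36.5% of all tested genes that rose and the 37.7% that fell. Of 23 tested AMPK and mTORC1 genes 7 rose and 12 fell against NaCl. Prkaa2, a catalytic subunit of the energy sensor AMPK that is best known from muscle, read 3.1, 0.983 and 3.62 normalized counts in NaCl and 96.3, 84.1 and 99.1 in DAHB+O. All treated libraries lay above all controls, and DAHB alone stood at 68.7 ± 8.2 (SD, n = 3). Sesn1, a sestrin induced by p53, fell 1.56-fold, while its relative Sesn2 rose 2.44-fold.

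Among 21 BCL2 family and death receptor genes 9 rose and 6 fell. Bcl2l11, which encodes the killer protein BIM, rose 1.47-fold from 5661 ± 424 to 8336 ± 648 (SD, n = 3), less than in DAHB at 16928 ± 493. The survival gene Mcl1 fell 1.29-fold, and Fas, a death receptor, rose 1.3-fold. Of 12 osmotic stress genes 5 rose and 4 fell. Slc5a3, the inositol carrier, read 3215, 2561 and 2948 in NaCl and 602, 651 and 670.4 in DAHB+O, with 574 ± 42.3 in DAHB (SD, n = 3). Whether the NaCl added to the control raised this gene there was not tested.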
